A study of Saccharomyces cerevisiae with 16 samples.

Results

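MA2 rep1 and MA7 rep1 are 2 of 16 gene expression arrays of the budding yeast Saccharomyces cerevisiae, and they are described here against 8 other arrays of the same series. On both of them transcripts of the cell wall gene PIR3, the alcohol dehydrogenase gene ADH2 and the stress gene HSP30 were higher than on any of the 8. Transcripts of the NAD synthesis genes BNA5 and BNA1, of the vitamin B6 genes SNZ3 and SNO3, and of the chaperonin subunit gene CCT5 were lower than on any of the 8. The 2 arrays were chosen by their measured levels: their profiles are alike over all genes, and PIR3 is high on both. The 8 were chosen as the other arrays on which TIR1, a cell wall mannoprotein gene known for its induction in low oxygen, exceeded 12 on the log2 scale: WT rep2, MA1 rep2, MA2 rep2, MA3 rep2, MA5 rep2, MA6 rep2, MA8 rep1 and MA8 rep2. TIR1 was 12.71 on MA2 rep1, 12.81 on MA7 rep1 and 12.35 to 13.27 on the 8. Just inside the limit lay MA3 rep2 with 12.35, and just outside lay MA7 rep2 with 10.87, so 6 arrays of the series were left out. Since measured levels of every gene went into the choice of the arrays, all differences between the 2 and the 8 are descriptions and none was tested.

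The study compared a wild-type strain (WT) with strains that each carry 1 aspartate-to-glutamate substitution in a subunit of CCT, with 2 arrays for each of 8 strains. MA2 is labelled with D90E in CCT2 and MA7 with D96E in CCT7. Of the 8 arrays, the mutant ones are labelled with D96E in CCT1 (MA1), D90E in CCT2 (MA2), D91E in CCT3 (MA3), D117E in CCT5 (MA5), D89E in CCT6 (MA6) and D98E in CCT8 (MA8). Every strain, WT included, carries leu2, trp1 and gal2 together with ura3-52, leu2-3, prb1-1122 and pep4-3, the allele prc467, and a CBP tag on CCT6. The tag is marked with KanMX4 in WT, with KANMX4 in MA6 and with URA3 in the other mutants, whose mutated gene is marked with KANMX4. All were grown at 30 °C to an OD600 of 0.5. Nothing in the labels says that the 2 arrays of a strain came from separate cultures.

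The strain labels were contradicted by URA3, so the values describe arrays and not genotypes. URA3 was 11.91 on MA2 rep1 and 12.02 on MA7 rep1, as their URA3 marker would give. Within the 8, WT rep2 with 11.95 and MA6 rep2 with 11.90 were high although their labels give no URA3 marker, and MA2 rep2 with 7.23 and MA8 rep1 with 7.30 were low although theirs do.

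CCT, also called TRiC, is a ring-shaped, ATP-driven folding machine built from related subunits, and actin and the tubulins are its best known clients. PIR proteins are bound covalently to the glucan of the yeast cell wall, and several of them are induced through the cell wall integrity pathway, in which the MAP kinase Slt2 activates the transcription factor Rlm1. NAD is made in yeast from tryptophan by the BNA enzymes or from imported precursors.

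Levels are deposited log2 values after RMA, a method that normalizes between arrays, so they are relative, and a shift shared by every gene would be removed. A gene is represented by 1 probe set, 5449 genes in all. The median gene level lay between 10.47 and 10.50 on the 16 arrays. Between MA2 rep1 and MA7 rep1 the root mean square difference over all genes was 0.11 log2, the lowest of the 120 pairs of arrays. It was 0.15 to 0.28 in the 16 pairs of 1 of these with 1 of the 8, and 0.12 to 0.23 in the 28 pairs within the 8. Both arrays are numbered replicate 1 in their labels, as is MA8 rep1 among the 8, and the other 7 are replicate 2; what the number marks is not stated. Chromosome X lay at the level of the other chromosomes, with a median deviation of -0.012 on MA2 rep1, -0.019 on MA7 rep1 and -0.030 to 0.0014 on the 8. Of 10 control transcripts with 3′ and 5′ probe sets, 18S rRNA was outside the range of the 8, with a 3′ minus 5′ difference of -5.42 and -5.36 on the 2 arrays, against -6.06 to -5.46 on the 8. The part of the replicate number and of RNA quality in the differences was not tested.

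Both arrays lay above all 8 for 628 genes, 11.5 percent of the 5449, and below all 8 for 537 genes, 9.86 percent. Most of these differences were small. The median difference of means was 0.20 log2 among the higher genes and -0.16 among the lower ones, and the median over all 5449 genes was 0.0017. At least 1.5-fold apart were 40 of the higher and 41 of the lower genes. At least 2-fold apart were 6 higher genes (0.11 percent) and 10 lower genes (0.184 percent), together 0.294 percent. The 6 were PIR3, ADH2, HSP30, GAC1, EGO4 and HPF1, and the 10 were BNA5, YIR042C, YHR140W, SNZ3, SNO3, GPM2, AFB1, NRT1, SSP1 and GEX1. The array carries probe sets for the fission yeast S. pombe, for which these samples hold no target; of 1746, 31 lay above all 8 (1.78 percent) and 42 below (2.41 percent), together 4.18 percent. Set against all 14 other arrays instead of the 8, 46 genes lay above (0.844 percent) and 51 below (0.936 percent). After each array was centred on its median gene, 546 genes were higher and 689 lower. Asking the same of 1 array alone gives more genes by construction: without MA2 rep1 the counts were 1086 higher and 1034 lower, with 10 genes at least 2-fold higher, and without MA7 rep1 they were 940 higher and 807 lower. When the 4 arrays of the 8 whose URA3 opposes their label were left out, 952 genes were higher and 798 lower.

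PIR3, which encodes a cell wall protein with internal repeats, had the largest upward gap of all genes. It was 11.60 on MA2 rep1 and 11.73 on MA7 rep1, against 9.09, 9.76 and 10.44 as the lowest, median and highest of the 8. The means were 1.91 log2 apart (3.76-fold), where the SD within the 8 was 0.43. PIR3 was higher still on MA1 rep1 and MA6 rep1, with 12.95 on each, and 10.01 on MA7 rep2, so its order over the 16 arrays put MA7 rep1 in place 3 and MA2 rep1 in place 4.

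ADH2 encodes the alcohol dehydrogenase that oxidizes ethanol and is repressed by glucose. Its level was 7.76 on MA2 rep1 and 7.94 on MA7 rep1, against 6.10, 6.53 and 6.75 as the lowest, median and highest of the 8, a difference of means of 1.36 log2 (2.57-fold). HSP30, a plasma membrane protein induced by stress, was 10.74 on MA2 rep1 and 10.64 on MA7 rep1. On the 8 it was 8.76, 9.41 and 9.82 as the lowest, median and highest, 2.56-fold lower in the mean. For neither gene did the 2 arrays and the 8 overlap, but both are markers of the 2 arrays, so this is no separate result. MA1 rep1 had 10.29 and MA6 rep1 10.19 for ADH2, and 11.07 and 11.64 for HSP30, so those 2 arrays outside the comparison were higher than MA2 rep1 and MA7 rep1 for both genes. ADH2 shares most of its sequence with ADH1, which was 14.65 on MA2 rep1, 14.62 on MA7 rep1 and 14.60 to 14.71 on the 8; ADH1 was looked up after the values were seen.

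CCT5, the gene of a chaperonin subunit, was the marker on the low side. It was 12.83 on MA2 rep1 and 12.78 on MA7 rep1, the lowest values of all 16 arrays, against 13.10, 13.14 and 13.16 as the lowest, median and highest of the 8. The difference of means, -0.33 log2 or 0.795-fold, was small, but the 8 were close to each other, with an SD of 0.02. MA6 rep1 with 12.91 and MA1 rep1 with 12.93 came next above them.

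**Figure D1:**
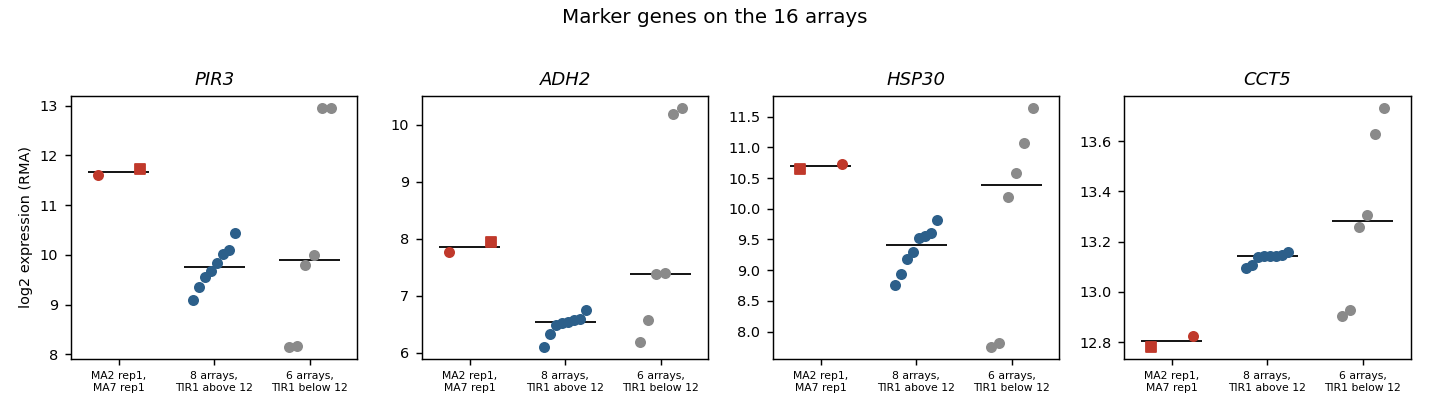
Level of PIR3, ADH2, HSP30 and CCT5 (y axes, log2 after RMA) on MA2 rep1 (red circle) and MA7 rep1 (red square), on the 8 arrays with TIR1 above 12 (blue) and on the 6 with TIR1 below 12 (grey); lines are medians. The 2 red points lie above all blue points for PIR3, ADH2 and HSP30 and below them for CCT5. In the panels of PIR3, ADH2 and HSP30, 2 grey points lie higher still.

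Of the 8 CCT genes, 4 lay below all 8 arrays, beside 9.86 percent of all genes, and 0 above. CCT5, 1 of the 4, is itself a marker of the choice. Besides CCT5 these were TCP1 (the CCT1 gene), CCT7 and CCT8. TCP1 was 12.55 on MA2 rep1 and 12.60 on MA7 rep1, against 12.64 to 12.74 on the 8. CCT7, whose product carries the substitution in the strain named MA7, was 12.16 on MA2 rep1 and 12.23 on MA7 rep1, against 12.27 to 12.37 on the 8. CCT8 was 12.81 on MA2 rep1 and 12.80 on MA7 rep1, against 12.87 to 13.04 on the 8. These 3 differences were -0.11, -0.11 and -0.13 log2, smaller than that of CCT5. All 3 genes were lower still on MA1 rep1 and MA6 rep1, outside the comparison. There CCT7 was 12.07 and 12.08, and CCT8 was 12.74 and 12.69.

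CCT2, the gene mutated in the strain named MA2, lay within the range of the 8: it was 12.97 on MA2 rep1 and 12.96 on MA7 rep1, against 12.93 to 13.06. CCT4 was 13.02 on both arrays, and 12.99 to 13.11 on the 8. CCT3 and CCT6 overlapped too, with a wide spread within the 8. CCT3 was 12.18 on MA2 rep1 and 12.21 on MA7 rep1, against 10.16 to 12.37 on the 8. CCT6 was 12.67 on both arrays, against 11.46 to 12.94 on the 8. CCT3, CCT5, CCT7 and CCT8 are on chromosome X, which was at the common level on all 10 arrays, as given above.

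Genes of proteins that work with CCT or are folded by it showed little difference. None of 7 measured genes for prefoldin and phosducin-like cofactors lay outside the range of the 8, with a median difference of -0.0038. Of 14 genes of CCT clients, 3 lay below all 8, beside 9.86 percent of all genes, and all 3 encode tubulins. TUB1, another tubulin gene of the list, lay within the range, with a difference of -0.05. The beta-tubulin gene TUB2 was 13.15 on MA2 rep1 and 13.16 on MA7 rep1, against 13.17 to 13.24 on the 8. The alpha-tubulin gene TUB3 was 12.13 on MA2 rep1 and 12.17 on MA7 rep1, against 12.19 to 12.30, and the gamma-tubulin gene TUB4 10.42 and 10.46, against 10.51 to 10.68. The client list's median difference was -0.0094, and these 3 differences were at most 0.15 log2 in size.

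Among the 15 genes with the largest upward gaps, several encode membrane, wall and stress proteins. GCY1, an aldo-keto reductase, was 11.20 on MA2 rep1 and 11.26 on MA7 rep1, against 10.02, 10.42 and 10.54 as the lowest, median and highest of the 8. RTN2, a reticulon of the endoplasmic reticulum, was 8.72 and 8.80 on the 2 arrays, against 7.66, 7.87 and 8.08. YPS3, an aspartyl protease of the yapsin family at the cell surface, was 9.05 and 9.19 on the 2 arrays, against 8.05, 8.30 and 8.50. These 3 genes were 1.84-, 1.85- and 1.78-fold higher in the mean.

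HXT7, a high-affinity hexose transporter nearly identical in sequence to HXT6, was 10.60 on MA2 rep1 and 10.58 on MA7 rep1, against 9.58, 9.77 and 9.99 on the 8. The probe set may read both transporters. HSP12, a small protein that protects membranes under stress, was 13.69 and 13.66 on the 2 arrays, against 12.33, 12.85 and 13.14 on the 8. CRG1, a methyltransferase, was 11.54 and 11.66, against 10.21, 10.66 and 11.02, and SVS1, a cell wall protein, was 12.74 and 12.86, against 12.03, 12.20 and 12.26. These genes were named for their upward gaps, so both arrays lie above all 8 for each of them by definition.

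GAC1, the regulatory subunit that directs the phosphatase Glc7 to glycogen synthase, was 6.64 on MA2 rep1 and 6.88 on MA7 rep1, against 5.31, 5.57 and 6.13 on the 8. This is a dim probe set: S. pombe probe sets had a median of 4.37 and a 99th percentile of 6.08, so most of the 8 lay no higher than that background. The remaining genes of the 15 were EGO4 with 9.0 and 9.18 on the 2 arrays, against 7.74 to 8.38 on the 8, YNR065C with 11.36 and 11.46, against 10.37 to 10.68, YBR085C-A with 11.72 and 11.84, against 10.82 to 11.19, and the TRAPP complex gene TRS65 with 10.29 and 10.39, against 9.37 to 9.81. That each of these was above all 8 on both arrays follows from the choice by gap. The map of gene deviations shows the 6 arrays with low TIR1 beside the others.

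**Figure D2:**
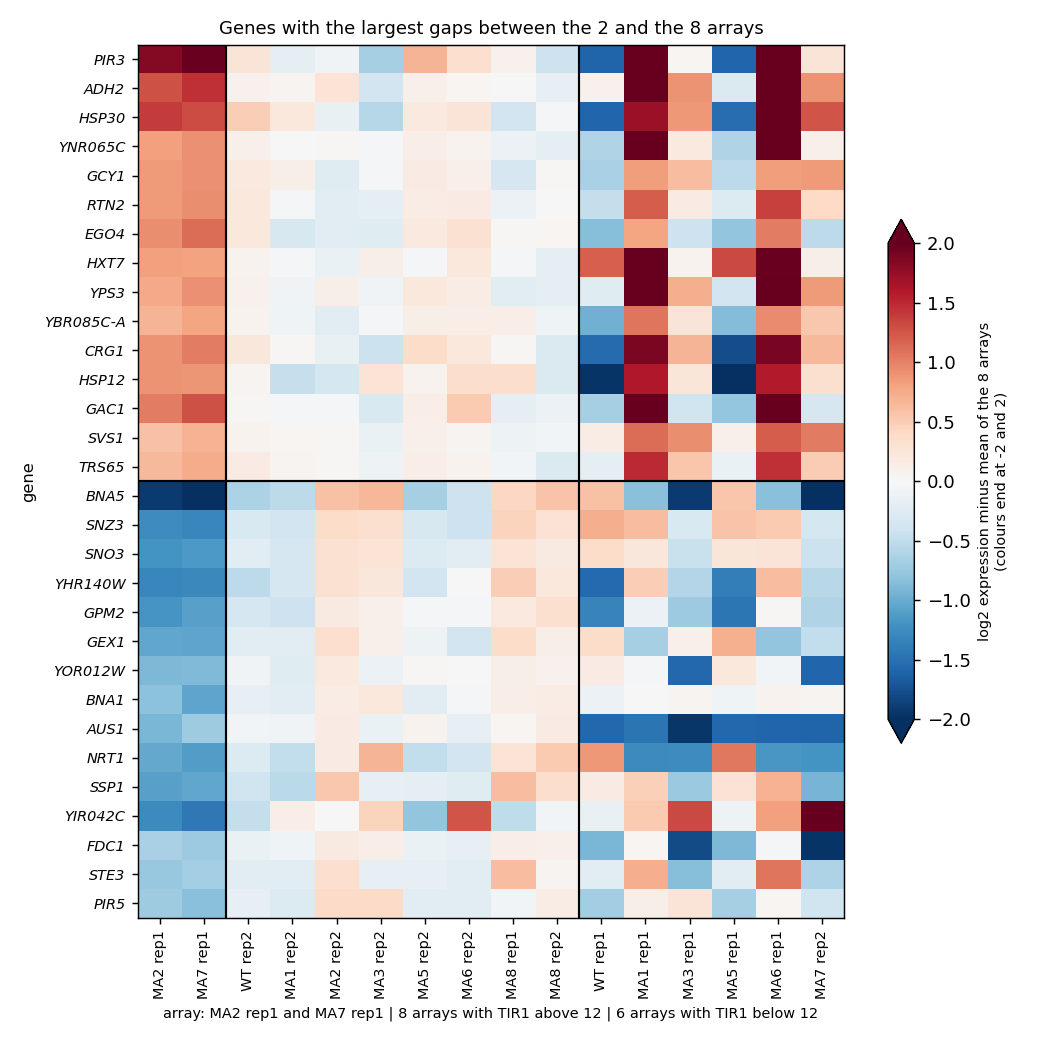
Deviation from the mean of the 8 arrays (colour, log2) for the 15 genes with the largest upward gap and the 15 with the largest downward gap (rows), on the 16 arrays (columns; black lines part MA2 rep1 and MA7 rep1, the 8 arrays with TIR1 above 12 and the 6 with TIR1 below 12). The upper 15 rows are red and the lower 15 blue on both MA2 rep1 and MA7 rep1, and PIR3 and BNA5 reach 1.91 and -1.98 in the mean.

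Most genes of the cell wall integrity pathway lay above the 8. Of 19 measured members, 14 were above all 8 and 0 below, against 11.5 percent of all genes above, and the median difference was 0.20 log2. SLT2, the MAP kinase gene of the pathway, was 12.34 on MA2 rep1 and 12.40 on MA7 rep1, against 11.83, 12.05 and 12.15 as the lowest, median and highest of the 8. RLM1, its transcription factor, was 10.97 and 11.04 on the 2 arrays, against 10.69, 10.80 and 10.92. PST1, a cell wall glycoprotein, was 12.66 and 12.82, against 12.10, 12.25 and 12.37. YPK2, a protein kinase, was 10.48 and 10.60, against 9.91, 10.05 and 10.20. YPS3 and SVS1, given above, belong to the list too. The 14 differences were between 0.08 and 0.83 log2. Against all 14 other arrays 0 members lay above: MA1 rep1 and MA6 rep1 had 12.74 and 12.77 for SLT2, and 13.36 and 13.47 for PST1. The name MLP1 in the list was read as the nuclear basket gene, which was within the range, with 10.52 and 10.72 on the 2 arrays, against 10.63 to 10.91 on the 8.

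The PIR family itself did not lie on one side. Of 5 genes, PIR3 and CIS3 were above all 8, PIR5 was below all 8, and PIR1 and HSP150 were within the range. Of all genes, 11.5 percent lay above and 9.86 percent below. CIS3 was 13.68 on MA2 rep1 and 13.70 on MA7 rep1, against 13.49 to 13.63 on the 8. PIR5 was 7.28 and 7.15 on the 2 arrays, against 7.71 to 8.36. PIR1 was 12.95 and 12.93, against 12.87 to 13.19, and HSP150 was 14.10 and 14.09, against 13.96 to 14.11. HPF1, a cell wall mannoprotein named after its values were seen, was 12.49 on MA2 rep1 and 12.57 on MA7 rep1, against 11.18 to 12.02 on the 8 and 10.49 to 12.20 on the 6 other arrays, so it was above all 14. Of 5 flocculin genes, FLO9 was above all 8, beside 11.5 percent of all genes, and none below.

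Genes that peak at the start of the cell cycle lay partly above the 8. In RNA of a whole culture, fewer cells of a kind and less RNA per cell cannot be told apart. Of 14 genes of the G1/S transition, 7 were above all 8, beside 11.5 percent of all genes, and 0 below, with a median difference of 0.08. The G1 cyclin gene CLN2 was 10.67 on MA2 rep1 and 10.86 on MA7 rep1, against 10.21, 10.37 and 10.42 on the 8. CLN1 was 9.80 and 9.95, against 9.41, 9.60 and 9.74. On the 6 arrays with low TIR1, CLN2 was 10.96 to 11.25, higher than on both arrays, and CLN1 was 9.94 to 10.15. PCL1, a cyclin of the kinase Pho85, was 10.33 and 10.49, against 9.74, 9.86 and 10.06. POL30, the replication clamp PCNA, was 12.72 on both arrays, against 12.49 to 12.66 on the 8. Among 11 genes of the G2/M transition, DBF2 lay above all 8 and 0 below. Of 9 measured histone genes 0 were above and 2, HTB2 and HTZ1, below, beside 9.86 percent of all genes below.

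Stress genes formed the other large group on the high side. Of 22 general stress genes, 15 were above all 8, beside 11.5 percent of all genes, and 0 below, with a median difference of 0.26 log2. The 15 include the marker HSP30. HSP12, HSP30 and RTN2 were described above. GAD1, glutamate decarboxylase, was 11.61 on MA2 rep1 and 11.49 on MA7 rep1, against 10.82, 10.99 and 11.18 on the 8. The small heat shock gene HSP26 was 11.96 and 11.77 on the 2 arrays, against 10.66 to 11.57 on the 8 and 9.50 to 10.97 on the other 6, so it exceeded all 14.

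A list of Hsp70, Hsp90, disaggregase and other chaperones gave 7 of 24 genes above all 8 and 0 below. The 7 were HSP26, HSP42, SSA4, HSP104, HSP78, SSA3 and HSP10. The Hsp90 genes HSC82 and HSP82 lay within the range. The shares of all genes were 11.5 and 9.86 percent, and the list's median difference was 0.06. The disaggregase gene HSP104 was 12.72 on MA2 rep1 and 12.82 on MA7 rep1, against 12.15, 12.52 and 12.64 on the 8. The stress-induced Hsp70 gene SSA4 was 10.52 and 10.66 on the 2 arrays, against 10.10 to 10.28, and SSA3 was 9.88 and 9.92, against 9.55 to 9.78. Of 10 markers of cell cycle exit and quiescence, 7 were above, beside 11.5 percent of all genes, and 0 below. Their median difference was 0.26. SPG4, a gene known from stationary phase, was 6.63 and 6.67 on the 2 arrays, against 5.79 to 6.27, near the S. pombe background, and SPG5 was 11.75 and 11.82, against 11.30 to 11.58. The quiescence list shares HSP26, SSA3, YGP1 and GRE1 with the stress list, and the chaperone list shares HSP26, HSP42 and SSA3 with it. The counts are thus not separate.

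The weak acid and membrane stress list, which also holds HSP30, had 4 of 9 genes above all 8 and 0 below (median difference 0.14). Of all genes, 11.5 percent lay above and 9.86 percent below. Besides HSP30 and YGP1 the 4 genes were YRO2 and the polyamine transporter TPO2. YRO2 was 12.03 on MA2 rep1 and 11.78 on MA7 rep1, against 11.35 to 11.66 on the 8. TPO2 was 11.64 on both arrays, against 11.36 to 11.61. PDR12, the main transporter gene induced by weak acids, lay within the range, with 11.64 and 11.47 on the 2 arrays, against 11.21 to 11.97; it was looked up after the values were seen. Of 9 genes of pleiotropic drug resistance 0 were above and 1, PDR3, below.

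Carbon metabolism was divided. Of 25 glucose-repressed and gluconeogenic genes, 11 were above all 8 and 3 below, beside 11.5 and 9.86 percent of all genes. Their median difference was 0.15, and the 11 include the marker ADH2. On the high side, CYB2, the lactate dehydrogenase of mitochondria, was 8.31 on MA2 rep1 and 8.47 on MA7 rep1, against 7.08, 7.56 and 7.99 on the 8. HXK1, a hexokinase that glucose represses, was 12.13 and 12.06 on the 2 arrays, against 11.25 to 11.76 on the 8 and 11.14 to 11.93 on the other 6. The 3 lower genes were the key gluconeogenic gene PCK1, the glyoxylate cycle gene ICL1 and CAT8, the activator of both. PCK1 was 9.07 and 9.03 on the 2 arrays, against 9.30, 9.43 and 9.75 on the 8. CAT8 was 6.63 and 6.84, against 7.05 to 7.42, and ICL1 was 6.96 and 6.84, against 6.97 to 7.26. Without MA2 rep1, 5 genes of the list were lower.

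The core glycolytic enzymes gave 0 of 15 measured genes on either side, with a median difference of -0.019 and a span from -0.16 to 0.0098. Of 8 measured hexose transporters, 3 were above, beside 11.5 percent of all genes, and 0 below. Their median difference was 0.12, and 5 were above without MA2 rep1. HXT2, a high-affinity transporter, was 11.93 on MA2 rep1 and 11.98 on MA7 rep1, against 11.48 to 11.83 on the 8. HXT5, a transporter of slowly growing cells, was 8.41 and 8.49, against 7.62 to 8.35, and above all 14 other arrays. HXT7, described above, was the third.

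Of 19 genes of trehalose and glycogen metabolism, 10 were above all 8 and 1 below, beside 11.5 and 9.86 percent of all genes. The median difference was 0.10. GPH1, glycogen phosphorylase, was 10.06 on MA2 rep1 and 9.83 on MA7 rep1, against 8.92, 9.22 and 9.40 on the 8. TSL1, a subunit of trehalose synthase, was 12.85 and 12.92 on the 2 arrays, against 12.33 to 12.71, and the trehalase gene NTH1 was 12.70 and 12.63, against 12.30 to 12.47. Genes for making and for breaking down both stores were thus among the 10. GSY1, a glycogen synthase, was the 1 lower gene, with 8.56 and 8.60 on the 2 arrays, against 8.76 to 9.53.

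**Figure D3:**
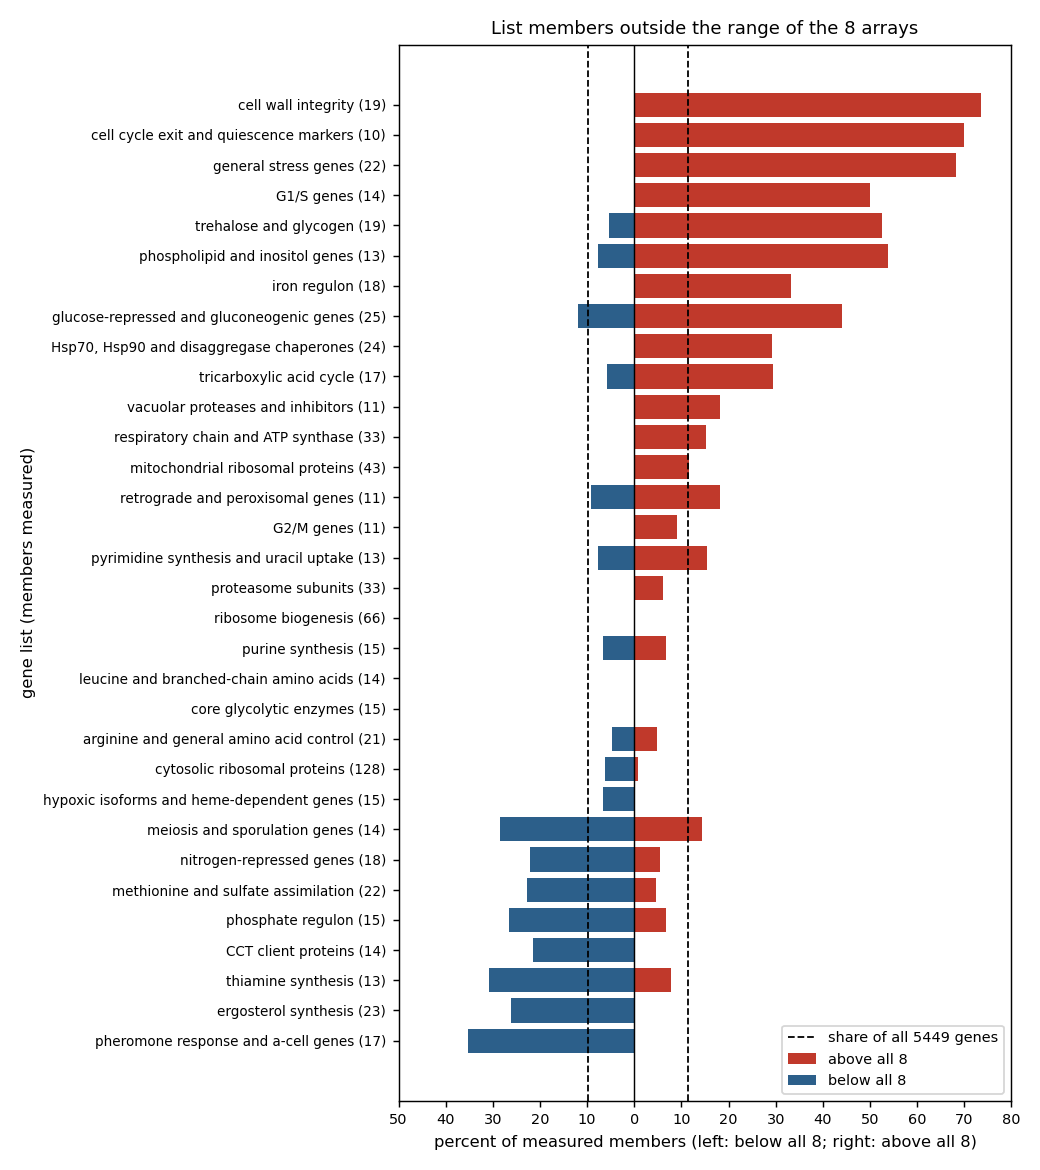
Percent of the measured members of each gene list (number in brackets; the reported lists of at least 10 measured genes, without the 4 lists added after the values were seen) that lay above all 8 arrays (red, right of 0) or below all 8 (blue, left of 0) on both MA2 rep1 and MA7 rep1. Dashed lines give the same for all 5449 genes, 11.5 and 9.86 percent; cell wall integrity, quiescence and general stress genes reach farthest to the right, and pheromone response genes farthest to the left.

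Mitochondrial lists had differing shares above all 8, beside 11.5 percent of all genes. They were 29.4 percent for the tricarboxylic acid cycle, 15.2 percent for the respiratory chain and 11.6 percent for mitochondrial ribosomal proteins. Of 17 genes of the tricarboxylic acid cycle, 5 were above all 8 and 1, ACO1, below, with a median difference of 0.05. CIT1, the citrate synthase of mitochondria, was 13.21 on both arrays, against 12.89 to 13.10 on the 8. Of 33 genes of the respiratory chain and ATP synthase, 5 were above and 0 below (median difference 0.05), with 8 above without MA2 rep1, 10 without MA7 rep1 and 2 after centring or quantile normalization. Of 43 mitochondrial ribosomal protein genes, 5 were above and 0 below (median difference 0.04), with 9 without either of the 2 arrays and 3 after either normalization.

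The gene with the largest difference on the low side belongs to NAD synthesis. BNA5, kynureninase of the pathway from tryptophan, was 8.45 on MA2 rep1 and 8.30 on MA7 rep1, against 9.69, 10.35 and 11.02 as the lowest, median and highest of the 8. The means were 1.98 log2 apart, 3.94-fold higher on the 8. The 8 had 9.72 on WT rep2, 9.83 on MA1 rep2, 9.69 on MA5 rep2, 9.94 on MA6 rep2, 10.93 on MA2 rep2, 11.02 on MA3 rep2, 10.77 on MA8 rep1 and 10.93 on MA8 rep2. No value lay between 9.94 and 10.77. Outside the comparison, BNA5 was as low on MA7 rep2 with 8.19 and MA3 rep1 with 8.44, so the low level was not particular to the 2 arrays.

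BNA1, the dioxygenase that makes quinolinate, was 11.96 on MA2 rep1 and 11.73 on MA7 rep1, against 12.56, 12.83 and 13.00 on the 8. The other 6 arrays were at 12.66 to 12.85, so BNA1 was below all 14. NRT1, a transporter of nicotinamide riboside, was 6.84 and 6.75 on the 2 arrays, against 7.37, 7.82 and 8.55 on the 8.

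The list of NAD synthesis and uptake was drawn up after these values were seen. Of its 14 genes, 6 were below all 8 and 1 above, with a median difference of -0.24, beside 9.86 percent of all genes below. The 6 include BNA4, kynurenine monooxygenase, with 8.80 on MA2 rep1 and 8.64 on MA7 rep1, against 9.05 to 9.59 on the 8, and below all 14. BNA6, quinolinate phosphoribosyltransferase, was 11.28 and 11.19, against 11.60 to 12.04. TNA1, the nicotinic acid permease, was 10.50 and 10.35, against 10.71 to 11.27. PNC1, the nicotinamidase, was the 1 higher gene, with 13.11 and 13.10 on the 2 arrays, against 12.69 to 13.04. BNA2, the first enzyme of the pathway, overlapped, with 6.66 and 7.06, against 6.87 to 7.44.

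SNZ3 and SNO3, neighbouring genes for vitamin B6 synthesis, were low on the same 2 arrays. SNZ3 was 8.11 on MA2 rep1 and 8.06 on MA7 rep1, against 8.95, 9.36 and 9.80 on the 8, and SNO3 was 7.80 and 7.84, against 8.66, 8.98 and 9.30. Both were below all 14 other arrays. Their probe sets may also read the near-identical SNZ2 and SNO2, which are not listed separately. SNZ1, another gene of the family, lay within the range, with 14.14 and 14.12 on the 2 arrays, against a median of 14.07 and a highest value of 14.17 on the 8, and SNO1 lay above, with 12.44 and 12.40, against 12.05 to 12.38. The 4 measured genes thus gave 1 above and 2 below, beside 11.5 and 9.86 percent of all genes. Their median difference was -0.56, and this list too was drawn up after the values were seen.

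**Figure D4:**
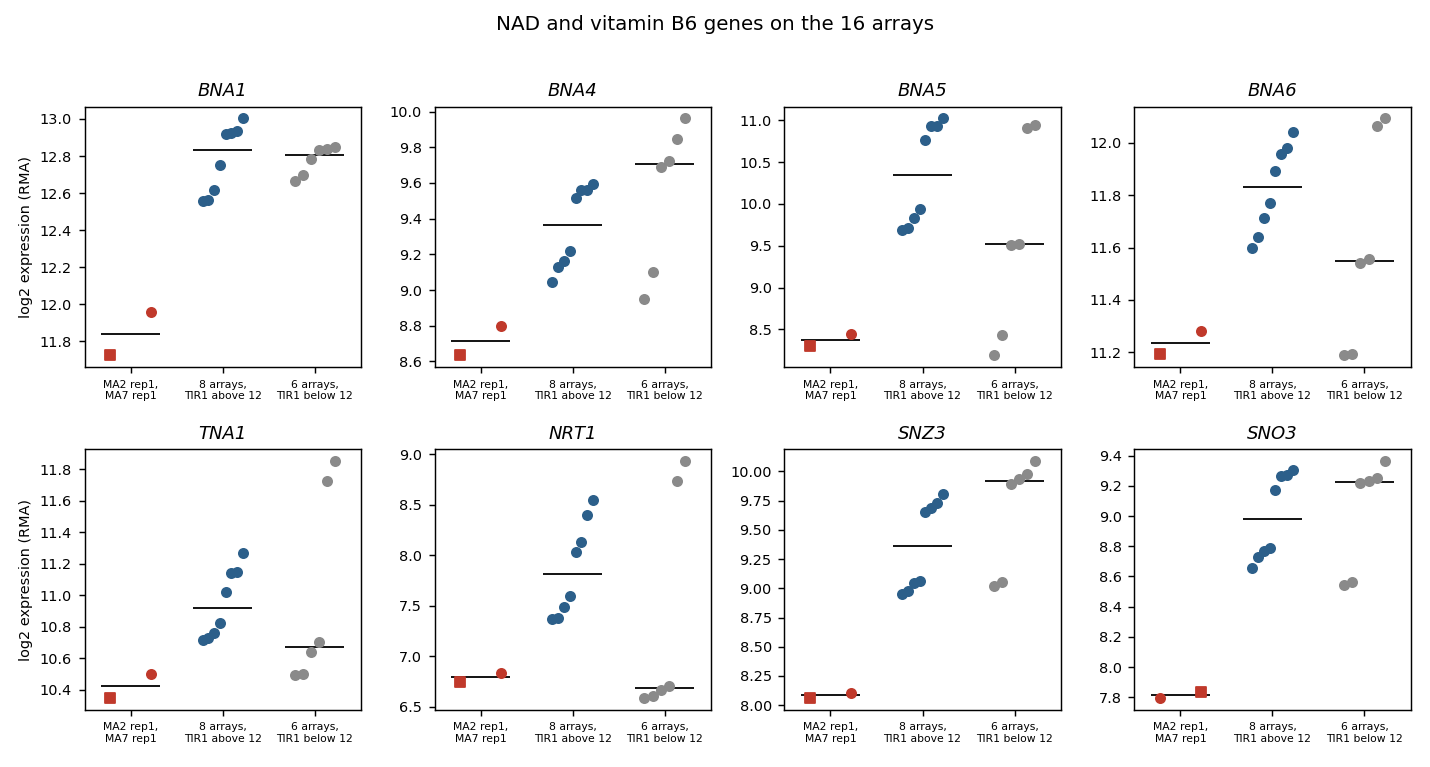
Level (y axes, log2 after RMA) of the NAD genes BNA1, BNA4, BNA5, BNA6, TNA1 and NRT1 and of the vitamin B6 genes SNZ3 and SNO3 on MA2 rep1 (red circle) and MA7 rep1 (red square), on the 8 arrays with TIR1 above 12 (blue) and on the 6 with TIR1 below 12 (grey); lines are medians. The red points lie below all blue points in every panel, and the blue points of BNA5, SNZ3 and SNO3 lie at 2 levels.

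Vitamin genes beyond these gave smaller differences. Of 13 measured thiamine genes, 4 were below all 8 and 1 above, beside 9.86 and 11.5 percent of all genes. Their median difference was -0.10. THI4, which makes the thiazole part of thiamine, was 8.36 on MA2 rep1 and 8.41 on MA7 rep1, against 8.66, 9.01 and 9.53 on the 8. The thiamine transporter gene THI7 was 10.11 and 10.23 on the 2 arrays, against 10.42 to 10.67. PHO3, a thiamine-repressed acid phosphatase, was the higher gene, with 12.18 and 12.12, against 10.98 to 11.99. Of 6 biotin genes, a list added after the values were seen, 0 were above and 2, BIO2 and BPL1, below.

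Among the other genes with large downward gaps, GPM2, a homolog of phosphoglycerate mutase, was 8.19 on MA2 rep1 and 8.28 on MA7 rep1, against 8.96, 9.41 and 9.70 on the 8. GEX1, a glutathione exchanger nearly identical in sequence to GEX2, was 6.60 and 6.58 on the 2 arrays, against 7.26, 7.64 and 8.01. FDC1, ferulic acid decarboxylase, was 9.78 and 9.71, against 10.27, 10.44 and 10.62. YHR140W was 7.94 and 7.97 on the 2 arrays, against 8.72 to 9.74, YOR012W was 6.44 on both, against 7.09 to 7.52, and YIR042C was 4.16 and 4.0, against 4.65 to 6.68, which is S. pombe background for the 2 arrays. AFB1, named after its values were seen, was 5.88 and 6.02, against 6.15 to 7.65. Of these, GEX1 and YIR042C lay below all 14 other arrays.

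AUS1, an ABC transporter that takes up sterols when oxygen is low, was 10.34 on MA2 rep1 and 10.54 on MA7 rep1, against 11.08, 11.23 and 11.41 on the 8. The 6 arrays with low TIR1 had 9.30 to 9.79, so for AUS1 the 2 arrays lay between the 8 and the other 6. In the sterol uptake list, drawn up after the values were seen, 0 of 6 were above and 2, AUS1 and PDR11, below (median difference -0.17). Of 8 anaerobic mannoprotein genes, the family of TIR1, 0 were above and 2 below, beside 11.5 and 9.86 percent of all genes. Their median difference was -0.28. DAN4 was 8.72 and 8.63 on the 2 arrays, against 8.91 to 9.38 on the 8, and TIR2 was 9.58 and 9.37, against 9.68 to 9.99. All 8 differences of this list were negative, from -0.48 to -0.08, although the choice by TIR1 put both sets on the high side of the series.

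Of 15 measured hypoxic isoforms and heme-dependent genes, 0 were above all 8 and 1 below, with a median difference of -0.07. The 1 was AAC3, an ADP/ATP carrier of low oxygen, with 9.23 on MA2 rep1 and 9.24 on MA7 rep1, against 9.51 to 9.85 on the 8. On the 6 arrays with low TIR1 it was 8.04 to 9.40, below the 8 too. Of the list, 4 genes were below without MA3 rep2 and 3 without MA7 rep1. Of 23 genes of ergosterol synthesis, 0 were above and 6 below, beside 11.5 and 9.86 percent of all genes. Their median difference was -0.06, and 10 were below without MA7 rep1. ERG26, a sterol dehydrogenase, was 11.99 and 11.87 on the 2 arrays, against 12.08 to 12.18, and ERG28 was 12.33 and 12.25, against 12.40 to 12.51. The 6 arrays with low TIR1 were below the 8 too, with 11.76 to 12.07 for ERG26 and 12.04 to 12.37 for ERG28.

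Some mating genes were on the low side. Of 17 pheromone response and a-cell genes, 0 were above all 8 and 6 below, beside 9.86 percent of all genes below, with a median difference of -0.18, and 12 were below without MA2 rep1. SST2, which turns off the pheromone signal, was 8.65 on MA2 rep1 and 8.57 on MA7 rep1, against 8.83, 9.12 and 9.56 on the 8. FAR1, the inhibitor that arrests the cell cycle for mating, was 9.14 and 8.89 on the 2 arrays, against 9.23, 9.48 and 9.79. The fusion genes FUS2, with 7.17 and 7.19, against 7.39 to 7.59, and PRM1, with 6.11 and 6.15, against 6.29 to 6.70, were also below.

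Markers of cell type were read on the same arrays. The a-cell receptor gene STE2 was 12.48 on MA2 rep1 and 12.44 on MA7 rep1, against 12.46 to 12.72 on the 8, and the a-factor gene MFA1 was 12.07 and 11.97, against 11.91 to 12.55. MFA2, BAR1, AGA2 and STE6 likewise overlapped with the 8, so 0 of these 6 a-cell markers were outside the range. All 6 differences of means were negative, from -0.27 for BAR1 to -0.12 for STE2. ASG7, a further a-cell gene that is in the pheromone list but not among the 6, was below all 8, with 8.14 and 8.07 on the 2 arrays, against 8.20 to 8.80. Of 2 alpha-cell genes 1, STE3, was below, beside 9.86 percent of all genes. STE3, the a-factor receptor, was dim, with 5.23 and 5.30 on the 2 arrays, against 5.75 to 6.60. SAG1 was 9.42 and 9.40, against 9.32 to 9.60. The 6 a-cell markers were at least 9.43 on each of the 10 arrays. Whether the low mating genes go with a difference in cell type was not tested.

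Of 14 genes of meiosis and sporulation, 4 were below all 8 and 2 above, beside 9.86 and 11.5 percent of all genes. Their median difference was -0.05. IME1, the activator of meiotic entry, was 8.40 on MA2 rep1 and 8.34 on MA7 rep1, against 8.79, 9.03 and 9.20 on the 8, and below all 14. NDT80, the activator of the middle sporulation genes, was 8.42 and 8.34, against 8.71 to 8.90. The kinase gene IME2 was above, with 8.45 and 8.48, against 8.09 to 8.36. SPS4 with 5.52 and 5.30, against 5.70 to 6.47, and DIT1 with 5.18 and 5.03, against 5.26 to 6.20, were dim, and so were SPR3 and SMK1, whose values were 5.12 to 6.19 over the 10 arrays, near the upper end of the S. pombe probe sets. SSP1, a prospore membrane protein with a large downward gap, was 5.39 and 5.43 on the 2 arrays, against 5.94 to 7.09.

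Phospholipid and inositol genes were mostly on the high side: 7 of 13 were above all 8 and 1 below, beside 11.5 and 9.86 percent of all genes. The median difference was 0.11. INO1, inositol phosphate synthase, was 8.27 on MA2 rep1 and 8.61 on MA7 rep1, against 7.75, 7.90 and 8.13 on the 8. The methyltransferase genes OPI3 and CHO2, which turn phosphatidylethanolamine into phosphatidylcholine, were both above. OPI3 was 12.75 and 12.78 on the 2 arrays, against 12.20 to 12.46, and CHO2 was 13.06 and 13.09, against 12.66 to 12.88. On the 6 arrays with low TIR1, CHO2 was 12.93 to 13.27, above the 8 too. PSD1, a phosphatidylserine decarboxylase, was the 1 lower gene, with 10.66 and 10.60, against 10.75 to 10.95.

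Metal genes gave small differences. Of 18 genes of the iron regulon, 6 were above all 8, beside 11.5 percent of all genes, and 0 below. Their median difference was 0.07. The heme oxygenase gene HMX1 was 10.91 on MA2 rep1 and 10.94 on MA7 rep1, against 10.22 to 10.86 on the 8, and TIS11, which degrades mRNAs of iron-using proteins, was 12.17 and 12.25, against 11.67 to 12.11. Of 9 zinc genes 1, the transporter ZRT1, was above and 0 below, with 3 above without MA7 rep1 and 3 below without MA2 rep1. Of 7 copper genes, CTR1 and CUP2 were above and CTR3 below, beside 11.5 and 9.86 percent of all genes, with 4 above without MA7 rep1.

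Of 18 measured nitrogen-repressed genes, 4 were below all 8 and 1, CAR1, above, beside 9.86 and 11.5 percent of all genes. Their median difference was -0.07. Without MA1 rep2 7 were below, and without MA7 rep1 3 were above. UGA4, the GABA permease, was 7.24 on MA2 rep1 and 7.31 on MA7 rep1, against 7.67, 8.08 and 8.31 on the 8. The allantoicase gene DAL2 was 7.54 and 7.55 on the 2 arrays, against 7.84 to 8.37. Of 22 genes of methionine and sulfate assimilation, 5 were below and 1 above (median difference -0.02), with 10 below and 3 above without MA2 rep1. MET2, homoserine acetyltransferase, was 8.19 and 8.37 on the 2 arrays, against 8.60 to 9.09, and below all 14. MMP1, the S-methylmethionine permease, was 9.06 and 8.79, against 9.28 to 9.59.

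Of 15 measured phosphate genes, 4 were below and 1 above, beside 9.86 and 11.5 percent of all genes. Their median difference was -0.12, and 7 were below without MA7 rep1. GIT1, a glycerophosphoinositol transporter, was 5.93 on MA2 rep1 and 6.17 on MA7 rep1, against 6.37 to 6.65 on the 8, and the phosphatase gene PHM8 was 9.54 and 9.52, against 8.70 to 9.42. Of 13 pyrimidine genes, the CTP synthase gene URA8 (11.85 and 11.94 on the 2 arrays, against 11.16 to 11.45) and URA10 were above and URA4 below, with 4 above without MA2 rep1 and 5 without MA7 rep1. Retrograde and peroxisomal genes gave 2 above and 1 below of 11, the 1 being PXA1, a peroxisomal fatty acid transporter, with 7.59 and 7.65 on the 2 arrays, against 7.94 to 8.31; 3 were below without MA7 rep1.

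Growth-related lists had differing shares outside the range, beside 11.5 percent of all genes above and 9.86 percent below. None of 66 ribosome biogenesis genes lay above or below all 8, with a median difference of -0.03; without MA2 rep1 1 was above and 6 were below, and without MA7 rep1 4 were above and 6 below. Of 128 cytosolic ribosomal protein genes, 8 (6.25 percent) were below and 1, RPS14B, above, with a median difference of -0.03. That count of 8 was 17 without WT rep2, 24 without MA2 rep1, 16 without MA7 rep1 and 14 after centring. Of 33 proteasome genes 2 (6.06 percent) were above and 0 below (4 above without MA8 rep2, 6 without MA2 rep1). Of 11 measured vacuolar proteases and inhibitors 2 (18.2 percent) were above and 0 below (7 above without MA2 rep1).

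In the lists of amino acid and purine synthesis, at most 6.67 percent of genes lay outside the range in each direction. Of all genes, 11.5 percent lay above and 9.86 percent below. Of 14 genes of leucine and branched-chain amino acids 0 were above and 0 below, although 3 were above without MA2 rep1 and 3 below without MA8 rep1. Of 21 measured genes of arginine and general amino acid control, SNO1 was above and HIS1 below, with 3 below without MA8 rep2 and 6 without MA2 rep1. Of 15 measured purine genes, GCV1 was above and ADE1 below, with 3 below without MA2 rep1.

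Between MA2 rep1 and MA7 rep1 few genes differed by much, and with 1 array each there is no replicate check. COS8, a member of a subtelomeric family of near-identical genes, was 9.71 on MA2 rep1 and 7.76 on MA7 rep1, the largest difference of all genes. The 8 ranged over 7.87 to 10.93 for COS8, so the spread among them was wider than this difference. YLR154C-H was 7.34 on MA2 rep1 and 6.31 on MA7 rep1, within 6.47 to 8.06 on the 8 for the first array and below it for the other. PUF3, an RNA-binding protein of mRNAs for mitochondria, was 6.58 and 5.94, against 5.35 to 6.72.

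In the other direction, HUG1, a gene induced by DNA damage, was 8.27 on MA2 rep1 and 8.94 on MA7 rep1, against 7.55 to 9.19 on the 8. The phosphate transporter gene PHO84 was 10.13 and 10.73 on the 2 arrays, against 9.39 to 12.16. PAU8, of the large seripauperin family, was 8.92 and 9.55, against 8.30 to 10.58. In these 3 genes both arrays lay within the range of the 8.

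MA2 rep1 and MA7 rep1 each differed more from the second array of their label than from one another. This follows from the choice, since the 2 were taken for their alike profiles and are the closest of the 120 pairs. MA2 rep2, one of the 8, differed from MA2 rep1 by a root mean square of 0.22 log2, and had 9.68 for PIR3, 6.75 for ADH2, 9.18 for HSP30, 13.14 for CCT5 and 10.93 for BNA5. MA7 rep2, with TIR1 below the limit, differed from MA7 rep1 by 0.35. It had 10.01 for PIR3, 7.38 for ADH2, 10.59 for HSP30 and 13.73 for CCT5, and its chromosome X, where CCT5 lies, was raised by a median of 0.77. HSP30 and BNA5 on MA7 rep2 were thus near MA7 rep1, while PIR3 and CCT5 were not.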

How the data were processed

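The deposited table holds log2 expression values that the authors made with RMA in Partek, per the submitters' processing notes, which state no versions. No scanner files, genome build or coordinates were used here. Of 10928 probe sets, the platform annotation pairs 5498 with 1 S. cerevisiae gene (12 symbols updated), 1746 with S. pombe genes and 1 with several genes; 3683 are not listed. Each of 5449 genes was represented by its probe set with the highest mean. For 47 genes with several probe sets, 6 gave differing calls and 0 opposite ones.

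Arrays were named from their titles. A gene was called when both MA2 rep1 and MA7 rep1 lay above the highest, or below the lowest, of the 8; differences are mean of the 2 minus mean of the 8. No test was run between the 2 and the 8, and for arrays their number limits precision. The arrays, the 45 gene lists and the markers were chosen with earlier results of these data known, and 4 further lists were added after the values were seen; 1 of the 45 is not reported here. The genes named were the markers and CCT genes, the 15 largest gaps in each direction, up to 4 list members with the largest gap, and the 10 largest differences between the 2 arrays in each direction (169 genes); other genes are said to be chosen after their values were seen, or complete a count or marker list. Alternatives changed the probe set rule, normalization, a filter at 7, chromosome X and the arrays used. Python 3.11.15, numpy 2.4.6, pandas 2.3.3 and matplotlib 3.10.9 were used.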

Additional observations from a re-analysis of the deposited data

Results flagged for a closer look

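Among the 169 named genes, 4 had a value on 1 of the 8 arrays that stood apart from the other 7 by Dixon's test at the 95 percent level, which chance alone does in about 1 in 20 genes. CTR1 was 12.66 on MA8 rep1, below the next value of 12.77. RGS2 was 6.89 on MA2 rep2, above the next value of 6.44. RPL22B was 13.05 on MA8 rep1, above 12.95, and SPS4 was 6.47 on MA8 rep2, above 6.06. On MA2 rep1 and MA7 rep1, which were not examined in this way, CTR1 was 12.84 and 12.88, RPL22B 12.84 and 12.79, and SPS4 5.52 and 5.30.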

How the results depend on the processing

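The counts of genes outside the range depended most on which arrays were used. Against all 14 other arrays they were 46 higher (0.844 percent) and 51 lower (0.936 percent), with 1 and 4 at least 2-fold apart. Leaving out 1 of the 8 gave 647 to 750 higher and 549 to 614 lower, with 4 to 9 and 8 to 11 at least 2-fold apart. Leaving out MA2 rep1 or MA7 rep1 gave 940 to 1086 higher and 807 to 1034 lower, with 4 to 10 and 11 to 13 at least 2-fold apart; fewer arrays loosen the criterion by construction. Without the 4 arrays whose URA3 opposes the label, chosen after seeing the data, 952 genes were higher. Centring gave 546 higher and 689 lower, and quantile normalization 620 and 598; the cause was not tested. Of 3175 differences of named genes under the alternatives, 3075 moved by less than the SD within the 8 and 94 by more. Against all 14 arrays 6 called genes changed sign: AAC3 to 0.0027, ACO1 to 0.055, ADE1 to 0.0057, GAP1 to 0.079, PDR3 to 0.12 and PRE3 to -0.013. No paired analysis was possible because the comparison of the 2 arrays with the 8 comes from no test, and MA7 has no array among the 8. Dim probe sets, such as GAC1, STE3, SPS4 and YIR042C, lie near the S. pombe background.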
